A study of Nannochloropsis oceanica with 8 samples.

Results

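Among 6185 peaks of 2 histone marks in the marine alga *Nannochloropsis oceanica* IMET1, 373 peaks (6.03%) held little of the mark labelled Kbu when the cells grew at high CO2. A peak was counted as poor in Kbu when its ChIP pileup was under 2 times the genome background in both high-CO2 Kbu libraries. The pileup is the deposited raw ChIP signal of a peak, taken as the depth of covering reads after the authors' scaling, and the genome background was taken as the lowest control value deposited for the same library. All levels below are pileup over this background, and the other 5812 peaks serve as the comparison. Cells of 1 strain were grown in column reactors under continuous light and aerated with air holding 5% CO2 (high CO2), or switched to 0.04% CO2 (low CO2) after a common hour at the higher level. Cells were sampled at 24 h. For each CO2 level there were 2 libraries with an antibody against H3K9me2 and 2 libraries labelled Kbu, 8 libraries in 4 groups. Nothing ties a library to 1 of the 3 reactors per CO2 level, so the spread between libraries may be technical.

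Kbu commonly stands for lysine butyrylation. This acylation of histone tails draws on the cell's acyl-CoA and is found in other eukaryotes mostly at the starts of active genes. H3K9me2, dimethylation of lysine 9 of histone H3, is in plants, animals and many fungi a mark of silent chromatin and repeats. The 2 kinds of mark are usually found apart, so peaks poor in an acylation are places where the other mark could be looked for. Gene names are not attached to these peaks in the files used here, so each is given by its name and position on the chromosomes of the deposited tables, for which no genome build is named.

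The values that chose the peaks are a description only. Across the 373 peaks the Kbu level at high CO2 ran from 0.377 through a median of 1.60 to 2.00 in replicate 1, and from 0.464 through 1.62 to 2.00 in replicate 2. The other peaks had a median of 3.79 ± 0.0059 (SD of the library medians, n = 2). The mean of the 2 libraries lay under the genome background itself at 46 of the 373 peaks. The limit cut through a continuous range. The highest peaks inside it were peak6110 (1.996 and 1.77), peak4854 (1.996 and 1.88) and peak4653 (1.99 and 1.995), and the nearest outside it were peak6101 (1.95 and 2.001), peak6000 (1.81 and 2.001) and peak5361 (2.005 and 1.89). The choice barely depended on which library made it: 420 peaks were under the limit in replicate 1, and 373 of these (88.8%) were under it in replicate 2 as well, while 405 were under it in replicate 2 alone, of which the 373 are 92.1%. At the median peak among the 373 the Kbu libraries had 352 and 259 covering reads (high CO2) and 93 and 58 (low CO2), which gives a counting error of 5.33% to 13.1%. In the H3K9me2 libraries it was covered by 28 to 65 reads, for a counting error of 12.4% to 18.9%.

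At low CO2 most of these peaks remained poor in Kbu relative to the genome background of each library. The level was under 2 times background in both low-CO2 libraries at 289 peaks (77.5%), at least 2 times background in 1 library at 35 (9.38%) and at least 2 times background in both at 49 (13.1%). The 49 rest on that background. They became 170 when low-CO2 levels were scaled to the all-peak median at high CO2, a setting chosen after seeing the data. They became 11 over each peak's own control and 5 over the 5th percentile of the control. In each of these settings the 373 peaks were kept as chosen and only the low-CO2 levels were recomputed. Over their own control the 373 were not below the other peaks at low CO2, with medians of 0.878 and 0.951 against 0.715 and 0.743. Among the other peaks, 4604 of 5812 (79.2%) were at 2 times background in both low-CO2 libraries. The median level of the 373 peaks was 1.61 ± 0.017 at high and 1.42 ± 0.025 at low CO2, against 3.79 ± 0.0059 and 2.61 ± 0.062 for the other peaks (SD of library medians, n = 2 each). Their median place at low CO2 was percentile 6.60 of all peaks, but the highest of them stood at percentile 98.7. Of the 373 peaks lowest in Kbu at low CO2, 176 belonged to the set chosen at high CO2. The other 197 had a median level of 2.44 at high CO2, and the lowest of these was 1.91.

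**Figure D1:**
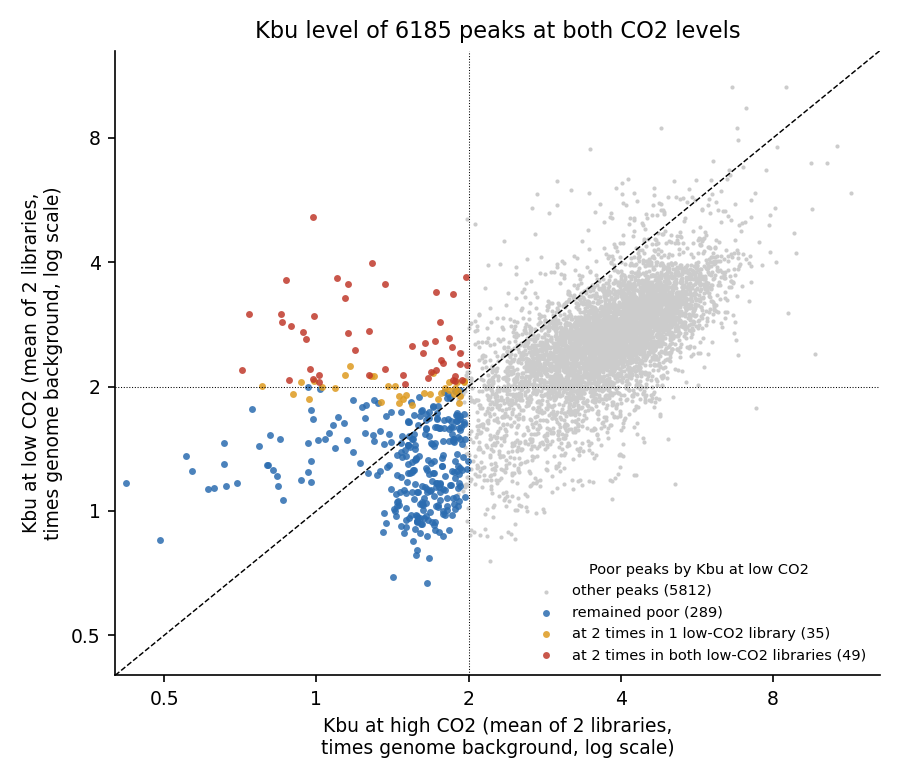
Mean Kbu level of the 2 high-CO2 libraries (x axis) against that of the 2 low-CO2 libraries (y axis), both as times genome background on log scales, with 1 point per peak; dotted lines mark 2 times background and the dashed line marks equal levels. The 373 poor peaks fill the left of the plot, where 49 stand above the dotted line at low CO2 in both libraries, while most of the other 5812 peaks lie under the dashed line.

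In single libraries the change went both ways. Both low-CO2 libraries were above both high-CO2 libraries at 136 of the 373 peaks (36.5%), a pattern held by 5.14% of all peaks. Both were below at 185 (49.6%), against 88.9% of all peaks, and the libraries overlapped at 52. The median log2 ratio of low to high CO2 was -0.10, against -0.52 for the other peaks and -0.51 for all. A mean level at least 2-fold higher at low CO2 was found at 39 peaks of the whole table, and 33 of them were among the 373. These counts use the high-CO2 values that chose the peaks, so no test was made on them. They also rest on the genome background, which was 11.6 and 11.3 in the low-CO2 Kbu libraries but 23.4 and 23.1 in those from high CO2. No label says why.

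Regression to the mean between the 2 high-CO2 libraries was allowed for by choosing peaks on 1 of them and reading the other. This cannot allow for a fluctuation that both libraries share, or for peaks that are in the table for their low-CO2 signal. Peaks under the genome background in replicate 1 (47 peaks, median 0.850) had a median of 0.866 in replicate 2, so the library not used for the choice was as low. The same peaks had medians of 1.53 and 1.64 in the 2 low-CO2 libraries. Peaks of 1 to 1.5 times background in replicate 1 (99 peaks) had medians of 1.42 in replicate 2 and of 1.48 and 1.44 at low CO2. Those of 1.5 to 2 times background (274 peaks) had medians of 1.81 in replicate 2 and lower values of 1.41 and 1.44 at low CO2. With the replicates exchanged, the 37 peaks under background in replicate 2 had medians of 0.822 there, 0.805 in replicate 1, and 1.44 and 1.62 at low CO2. The 91 peaks of 1 to 1.5 times background in replicate 2 had a median of 1.30 in replicate 1 and of 1.60 and 1.62 at low CO2, and the 277 of 1.5 to 2 times background had 1.74 in replicate 1 and 1.39 and 1.44 at low CO2. With either choice, of the 3 bins under the limit, the peaks under the background had the largest difference between their low-CO2 medians and the high-CO2 library that did not choose them.

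**Figure D2:**
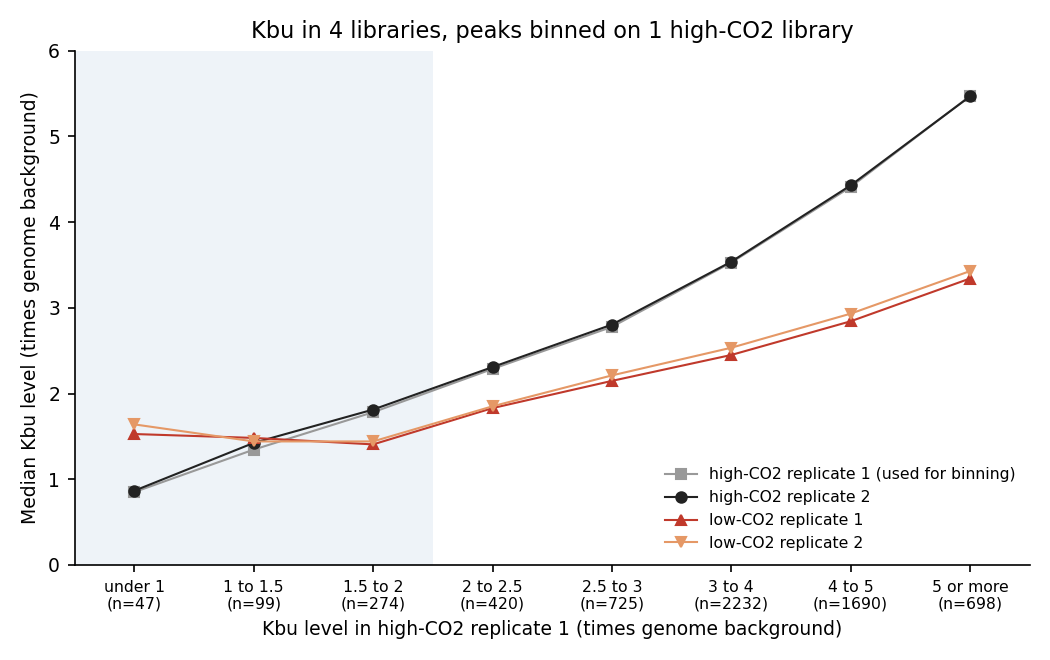
Median Kbu level in each of the 4 Kbu libraries (y axis, times genome background) for all peaks binned by their level in high-CO2 replicate 1 (x axis), with the number of peaks under each bin; the shaded bins lie under the limit of 2 times background. The 2 high-CO2 lines run together in every bin, and the low-CO2 lines lie above them in the lowest bin (1.53 and 1.64 against 0.866) and below them from 1.5 times background upward.

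The same split was tested with limma, fitted on log2 of the level over all 6185 peaks with Benjamini-Hochberg adjustment and a threshold of 0.05. Low CO2 (n = 2) was compared with the 1 high-CO2 library that had not chosen the peaks, which was assumed to vary as the low-CO2 libraries do. The split allows only for differences between the 2 high-CO2 libraries, and 373 of the 420 peaks under the limit in replicate 1 were under it in both. It does not allow for peaks that are in the table for their low-CO2 signal. Of the 420 peaks chosen on replicate 1, 85 (20.2%) rose at low CO2 against replicate 2, where 2.57% of all peaks rose, and 124 (29.5%) fell, where 73.2% of all peaks fell. Of the 405 chosen on replicate 2, 90 (22.2%) rose against replicate 1 (2.75% of all peaks) and 111 (27.4%) fell (72.8% of all peaks). The median change over all peaks was -0.51 on the log2 scale in both fits, and -0.14 and -0.12 over the chosen peaks. Scaling every library to the same geometric mean moved the median of all peaks to -0.02 and -0.03 and that of the chosen peaks to 0.36 and 0.37. On that scale 177 of the chosen peaks rose in either fit (13% of all peaks in both), and 8 and 5 fell (13.4% and 13.6% of all peaks). On the first scale, a limit of 1.5 times background in place of 2 chose fewer peaks. These were the 47 under background and the 99 of 1 to 1.5 times in replicate 1, or the 37 and 91 in replicate 2. Their medians were 0.41 and 0.51. In either fit 70 of them rose, where 2.57% and 2.75% of all peaks rose. Of these chosen peaks 15 and 4 fell, where 73.2% and 72.8% of all peaks fell. The direction of the chosen peaks' median therefore depends on the scaling and on the limit. It lay above that of all peaks in each of these settings. That is a description, since the peaks were chosen for low levels at high CO2, the side they were compared with.

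The 49 peaks at 2 times background in both low-CO2 libraries had a median Kbu level of 1.38 ± 0.047 at high and 2.45 ± 0.018 at low CO2 (SD of library medians, n = 2). The ratio of the means ran from 1.07 to 5.24 with a median of 1.87, and was at least 1.5 at 31 and at least 2 at 23 of them. That all 49 were higher at low CO2 is set by the limits that define them. The 35 peaks at 2 times background in 1 low-CO2 library had a median ratio of 1.26. The 289 peaks that remained poor had a median ratio of 0.820, from 0.404 to 2.78. Among these 289 both low-CO2 libraries were above both high-CO2 ones at 64 peaks and below them at 185. The high-CO2 values that chose the peaks are the denominator of these ratios, so the ratios are a description. Of the 46 peaks with a mean under the genome background at high CO2, 45 had both low-CO2 libraries above both high-CO2 libraries. This pattern was held by 5.14% of all peaks. The median ratio of the 46 was 2.03, and 13 were at 2 times background in both low-CO2 libraries. The high-CO2 values that picked the 46 also enter this comparison, and such peaks may be in the table for their low-CO2 signal. These counts are therefore a description.

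The highest Kbu level at low CO2 belonged to peak3461 on chromosome 24, from 592642 to 595569, which is also the widest of the 373 at 2927 bp. Its Kbu level was 1.03 and 0.941 in the high-CO2 libraries and 5.19 and 5.12 in the low-CO2 libraries. The second, peak2787 on chromosome 20 (210546 to 212258, 1712 bp), went from 1.22 and 1.36 to 4.08 and 3.90. Both peaks were near background at high CO2, and the first stood at percentile 98.7 of all peaks at low CO2. On chromosome 12, peak839 (135595 to 136619, 1024 bp) had levels of 1.04 and 1.15 at high and 3.02 and 4.30 at low CO2, where the 2 libraries differed by more than at the other peaks named here. On chromosome 7, peak5611 (1037585 to 1038659, 1074 bp) had 0.914 and 0.828 at high and 3.66 and 3.60 at low CO2. Also on chromosome 7, peak5455 (388502 to 388999, 497 bp) had 1.12 and 1.19 at high and 3.57 and 3.53 at low CO2. By contrast, peak2929 on chromosome 21 (76570 to 77537, 967 bp) lay just under the limit at high CO2, with 1.97 in both libraries, and had 3.83 and 3.55 at low CO2. That the groups did not overlap in any of the 6 follows from the limit at high CO2 and from their choice by the highest levels at low CO2.

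The lowest Kbu levels at low CO2 were below the genome background. On chromosome 25, peak3487 (55782 to 56291, 509 bp) had 1.68 and 1.62 at high and 0.590 and 0.745 at low CO2. On chromosome 10, peak349 (16447 to 16804, 357 bp) had 1.38 and 1.46 at high and 0.786 and 0.596 at low CO2. On chromosome 17, peak1933 (334980 to 335315, 335 bp) had 1.71 and 1.62 at high and 0.696 and 0.845 at low CO2. These 3 are narrow, and each had both low-CO2 libraries below both high-CO2 ones, a pattern held by 88.9% of all peaks. The other 2 of the 3 widest peaks had close levels at both CO2 levels. On chromosome 3, peak4342 (1391494 to 1394150, 2656 bp) had 1.99 and 1.81 at high and 2.12 and 1.99 at low CO2, and peak4652 on chromosome 4 (868572 to 871212, 2640 bp) had 1.82 and 1.83 at high and 1.996 and 1.84 at low CO2. In the authors' deposited table, whose values are divided by the control, the Kbu log2 ratio of high to low CO2 was -0.91 at peak4342 and -2.70 at peak4652.

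H3K9me2 was near background at most of the 373 peaks at both CO2 levels, as it was at the other peaks, but a minority carried much of it. The median level was 1.34 ± 0.070 at high and 1.49 ± 0.11 at low CO2, against 1.39 ± 0.069 and 1.58 ± 0.090 for the other peaks (SD of library medians, n = 2 each). At high CO2 only 10 peaks of the table were at 2 times background in both H3K9me2 libraries, and 5 of them were among the 373. Without high-CO2 replicate 1 this count of 5 became 13, and without replicate 2 it became 6. At low CO2, 45 of the 373 peaks (12.1%) and 272 of the other 5812 (4.68%) were at 2 times background in both libraries. Without low-CO2 replicate 1 the 45 became 69, and without replicate 2 they became 54. Both low-CO2 libraries were above both high-CO2 libraries at 170 of the 373 (45.6%), against 45.9% of all peaks, and below them at 32 (8.58%), against 3.78%. The 373 peaks stood at both ends of the H3K9me2 range at low CO2, with 181 (48.5%) in the lowest 25% of all peaks, 70 (18.8%) in the highest 10% and 31 (8.31%) in the highest 1%.

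The 5 peaks with H3K9me2 already at high CO2 were also 5 of the 6 with the most H3K9me2 at low CO2, and all 5 carried Kbu at low CO2. On chromosome 11, peak748 (804022 to 804719, 697 bp) had H3K9me2 levels of 3.30 and 3.68 at high and 5.51 and 7.54 at low CO2, while its Kbu level was 0.768 and 0.703 at high and 2.81 and 3.18 at low CO2. At peak5611 H3K9me2 was 3.50 and 3.48 at high and 5.27 and 7.28 at low CO2. On chromosome 15, peak1602 (586050 to 586585, 535 bp) had H3K9me2 of 3.10 and 2.89 at high and 5.47 and 5.68 at low CO2, with Kbu of 1.04 and 0.941 at high and 2.98 and 2.96 at low CO2. At high CO2 these peaks held H3K9me2 above 2 times background and Kbu near background, and at low CO2 both marks were above 2 times background. On the same chromosome, peak1583 (498310 to 498979, 669 bp) had H3K9me2 of 3.22 and 2.54 at high and 6.01 and 4.98 at low CO2, with Kbu of 0.887 and 0.816 at high and 3.07 and 2.93 at low CO2. On chromosome 3, peak4257 (1030681 to 1031720, 1039 bp) had the highest H3K9me2 of the 5 at high CO2, 4.49 and 4.23, and 6.34 and 5.07 at low CO2, with Kbu of 1.02 and 1.26 at high and 3.39 and 3.18 at low CO2. Some of the other 5 peaks of the table with H3K9me2 at high CO2 lie next to these. On chromosome 11, peak749 (805408 to 806535) follows peak748 and had Kbu of 2.36 and 2.34 at high CO2, just outside the limit, and of 4.05 and 4.94 at low CO2. On chromosome 3, peak4256 (1023007 to 1024806) precedes peak4257 and had Kbu of 4.87 and 4.73 at high and 4.01 and 4.52 at low CO2.

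**Figure D3:**
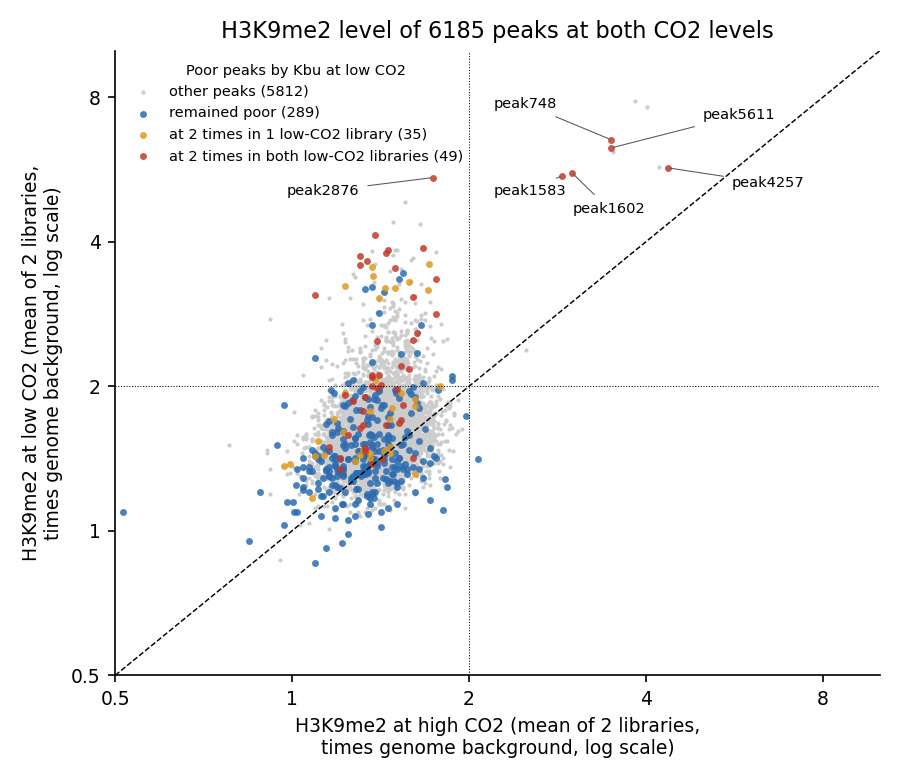
Mean H3K9me2 level of the 2 high-CO2 libraries (x axis) against that of the 2 low-CO2 libraries (y axis), both as times genome background on log scales, with 1 point per peak coloured by its Kbu level at low CO2; dotted lines mark 2 times background and the dashed line marks equal levels. Most poor peaks lie within the cloud of other peaks, and the 6 named peaks with the most H3K9me2 at low CO2 are all among the 49 at 2 times background in Kbu at low CO2.

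The limit on Kbu did not use H3K9me2, whose change was tested over all 6185 peaks with limma (2 libraries against 2, Benjamini-Hochberg adjusted p under 0.05). Which libraries' peak calls put a peak in the table is unstated. A peak poor in Kbu at high CO2 may be listed for its H3K9me2 or for its Kbu at low CO2. The part of this in the H3K9me2 counts was not tested. Of the 373 peaks, 47 (12.6%) rose at low CO2, where 4.92% of all peaks rose. The changes of these 47 ran from 0.59 to 1.59 on the log2 scale, and 39 of them were at 2 times background in both low-CO2 libraries. None fell (0% of all peaks), with 10 of the 373 and 21 of all peaks lower at an unadjusted p under 0.05, and 326 did not pass. The median change was 0.16 over the 373 peaks and 0.17 over all peaks. Scaling every library to the same geometric mean moved the median of all peaks to -0.02, and then 41 of the 373 rose (4.01% of all peaks) and 15 fell (1.03% of all peaks). All 41 were among the 47. The count that rose was 327 on the deposited normalised value, and 86, with 5 that fell, with a replicate block. How many of all peaks rose in these 2 settings was not counted, so neither count is read as a result about the 373. Fits with a library left out had 1 library on 1 side, and their counts are not read so either. Leaving out low-CO2 replicate 1 or 2 left 0 calls in limma, among the 373 as among all peaks, with 87 and 65 of the 373 higher at an unadjusted p under 0.05. Leaving out high-CO2 replicate 1 or 2 left 10 and 13 of the 373.

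The largest rise was at peak2876 on chromosome 20 (613745 to 614534, 789 bp). Its H3K9me2 level was 1.83 and 1.64 at high and 4.90 and 5.98 at low CO2, a change of 1.59 ± 0.17 (SE) on the log2 scale (limma, Benjamini-Hochberg adjusted p = 2e-05). Its Kbu level was 0.827 and 0.954 at high and 2.66 and 2.93 at low CO2, so both marks were higher at low CO2 in every library. On chromosome 29, peak4043 (486283 to 487484, 1201 bp) had H3K9me2 of 1.42 and 1.34 at high and 4.23 and 4.03 at low CO2. The next were peak2929, with 1.12 and 1.49 at high and 3.28 and 4.20 at low CO2, and peak1476 on chromosome 14 (1000591 to 1000991, 400 bp), the last peak of its chromosome, with 1.19 and 0.996 at high and 3.04 and 3.16 at low CO2. The last of the 6 were peak1242 on chromosome 13 (834850 to 835477), with a change of 1.39 ± 0.17, and peak3185 on chromosome 22 (549599 to 550202), with 1.38 ± 0.17. All 6 were at 2 times background in Kbu in both low-CO2 libraries. Among the 5 peaks with H3K9me2 at high CO2, 4 rose by 0.81 to 0.91, and peak4257 did not pass (change 0.37 ± 0.15, limma, Benjamini-Hochberg adjusted p = 0.18).

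Within the 373 peaks, H3K9me2 at low CO2 was found mostly where Kbu was found at low CO2. It was at 2 times background in both low-CO2 libraries at 23 of the 49 peaks with Kbu in both libraries (46.9%), at 10 of the 35 with Kbu in 1 (28.6%) and at 12 of the 289 that remained poor (4.15%). H3K9me2 rose at 21 (42.9%), 10 (28.6%) and 16 (5.54%) of these peaks, against 4.92% of all peaks, so the share in the peaks that remained poor was close to that of the whole table. Among the other peaks, 262 of the 4604 with Kbu in both low-CO2 libraries (5.69%) and 3 of the 736 with Kbu in neither had H3K9me2 in both. The Spearman correlation of the 2 mean levels at low CO2 was 0.565 over the 373 peaks and 0.417 over the other 5812. It is a description over peaks that share control libraries and depth. The 12 peaks with H3K9me2 but no Kbu call at low CO2 had mean Kbu levels of 1.30 to 1.99, so some stood just under the limit. Of the 46 peaks under the genome background in Kbu at high CO2, 20 (43.5%) were at 2 times background in H3K9me2 in both low-CO2 libraries. The share over all peaks was 5.13%. H3K9me2 rose at 21 of the 46 (45.7%), against 4.92% of all peaks. Peaks poor in Kbu at high CO2 may have entered the table through H3K9me2 or low-CO2 Kbu. The shares of the 46, and those within the 373 above, are therefore a description.

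The controls differed between these peaks and the rest, and they differed between CO2 levels. The control over genome background had a median of 1.19 ± 0.042 at high and 1.61 ± 0.017 at low CO2 at the 373 peaks in the Kbu libraries, and of 1.31 ± 0.041 and 3.62 ± 0.030 at the other peaks (SD of library medians, n = 2 each). In the H3K9me2 libraries the values at low CO2 were 1.62 and 3.62. A control within 0.005 of the genome background was found at 39 peaks of the table in each low-CO2 H3K9me2 library, and 37 of them were among the 373. At peak748, peak5611, peak1602, peak1583 and peak4257 the control was 1.00 in all 4 low-CO2 libraries. The authors' normalised value divides the pileup by this control and by 1 factor per library. Its median at the 373 peaks was 4.26 at high and 11.6 at low CO2 for Kbu and 9.83 and 21.1 for H3K9me2, and at the other peaks 8.99 and 9.56 and 9.41 and 9.94. Of the 373 peaks, 275 (73.7%) carry the Kbu status loss, meaning lower at high CO2, in the authors' deposited table, against 15.6% of all peaks, and 0 the status gain, against 2.93%. In the authors' deposited table of each mark, that status is loss or gain exactly where the unadjusted p is under 0.05, in 6185 of 6185 peaks. For H3K9me2 the authors' deposited table gives loss at 229 (61.4%), against 7.73% of all peaks, and gain at 0, against 0% of all peaks. With each peak's own control in place of the genome background, 11 of the 373 peaks were at 2 times in Kbu and 16 in H3K9me2 in both low-CO2 libraries. The other peaks were not counted in this setting. Over the own control the low-CO2 medians of the 373 were above those of the other peaks. They were 0.878 and 0.951 against 0.715 and 0.743 for Kbu, and 0.871 and 0.961 against 0.423 and 0.462 for H3K9me2. The part of the controls in these results was not tested.

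The 373 peaks were narrow. Their median width was 529 bp (quartiles 410 and 748, range 275 to 2927), against 1047 bp for the other peaks. They made up 80 of the 90 peaks under 400 bp (88.9%), 89 of the 181 of 400 to 499 bp (49.2%) and 111 of the 1217 of 500 to 749 bp (9.12%). Above that they were 54 of 1352 at 750 to 999 bp (3.99%), 31 of 3094 at 1000 to 1499 bp (1.00%) and 8 of 251 at 1500 bp or more (3.19%). Kbu at low CO2 went with width in the other direction. None of the 80 narrowest was at 2 times background in both low-CO2 libraries, while 9 of the 89 of 400 to 499 bp, 20 of the 111 of 500 to 749 bp, 9 of the 54 of 750 to 999 bp, 9 of the 31 of 1000 to 1499 bp and 2 of the 8 widest were. The median width was 663 bp for the 49 peaks and 499 bp for the 289 that remained poor. How the authors merged peaks from libraries and levels is unstated, and a peak's width and its pileup may come from the same reads.

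**Figure D4:**
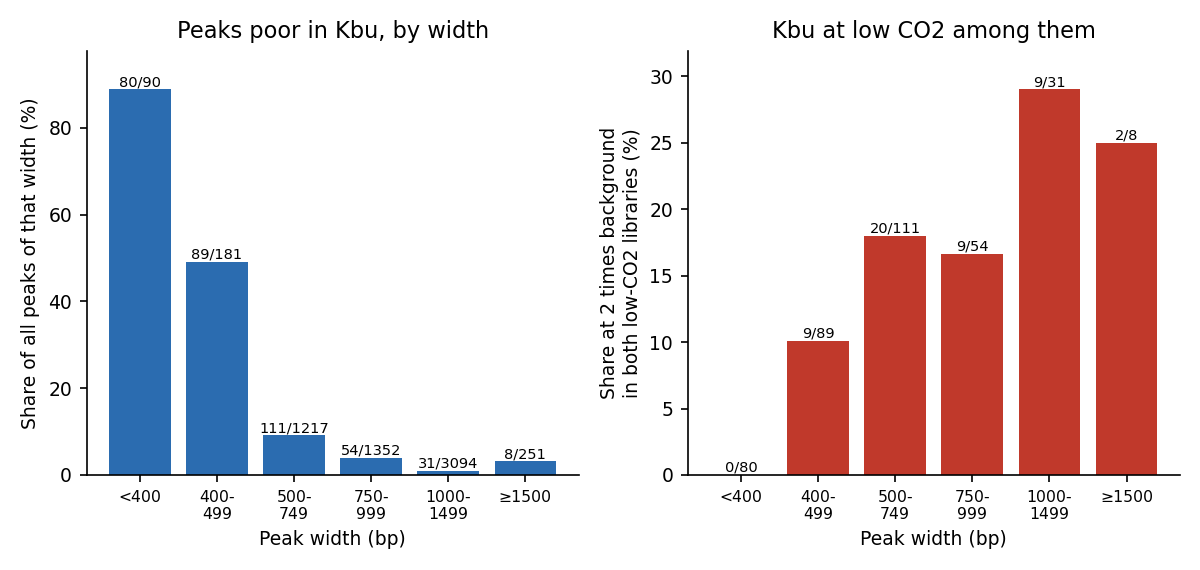
Left, share of all peaks of each width class (x axis, bp) that were poor in Kbu at high CO2 (y axis, percent); right, share of those poor peaks at 2 times background in Kbu in both low-CO2 libraries (y axis, percent), with the counts above the bars. Poor peaks fall from 88.9% of the narrowest class to 1.00% at 1000 to 1499 bp, while the share with Kbu at low CO2 is 0 of 80 in the narrowest class and 9 of 31 at 1000 to 1499 bp.

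The 373 peaks lay on all 30 chromosomes. Their share ran from 2.21% of the peaks on chromosome 22 (3 of 136) and 3.09% on chromosome 5 (10 of 324) to 15.8% on chromosome 18 (25 of 158), with 12% on chromosome 30 (9 of 75) and 10.6% on chromosome 23 (13 of 123) next. The other 25 chromosomes held between 3.98% and 7.26%. Peaks near chromosome ends were often poor: 16 of the 60 outermost peaks (26.7%), 45 of the 300 that are among the 5 outermost at an end (15%) and 77 of the 600 among the 10 outermost (12.8%). Poor peaks also lay beside each other. An adjacent peak on the chromosome, on either side, was poor at 84 of the 373 (22.5%) and at 605 of the other 5812 (10.4%). Most poor peaks still stood alone: 289 runs had 1 peak, 25 had 2, 6 had 3, 1 had 4 and 1 had 12. The median gap to the nearest peak was 1631 bp, against 2064 bp for the other peaks.

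Both long runs lay at the start of chromosome 18. The first 12 peaks of this chromosome, peak2053 to peak2064 from 3265 to 65320, were all poor in Kbu, and after peak2065 the next 4, peak2066 to peak2069 from 76297 to 103271, were poor as well. With peak2073 and peak2074, 18 of the first 25 peaks were in the set. Their Kbu level at high CO2 ran from 1.24 through a median of 1.60 to 1.84 in replicate 1 and from 1.39 through 1.67 to 1.94 in replicate 2. At low CO2 it ran from 0.756 through 0.930 to 1.24 and from 0.770 through 0.957 to 1.27, so none of the 18 was at 2 times background. H3K9me2 had medians of 1.46 and 1.74 at high and 1.32 and 1.39 at low CO2 there. At low CO2 these 18 peaks thus held Kbu around the genome background. Their H3K9me2 was above it, with medians under those of all peaks (1.50 and 1.65 at low CO2). At high CO2 their H3K9me2 medians were above the 1.35 and 1.44 of all peaks. The 18 were 348 to 1536 bp wide (median 778). They had control medians of 1.90 and 1.88 in the low-CO2 Kbu libraries. The other 7 of the first 25 peaks were richer in Kbu, with medians of 3.55 and 3.59 at high and 1.51 and 1.54 at low CO2, up to 3.90 and 3.68 at low CO2. The 7 poor peaks elsewhere on chromosome 18 had Kbu medians of 1.79 and 1.81 at high and 1.98 and 1.94 at low CO2.

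**Figure D5:**
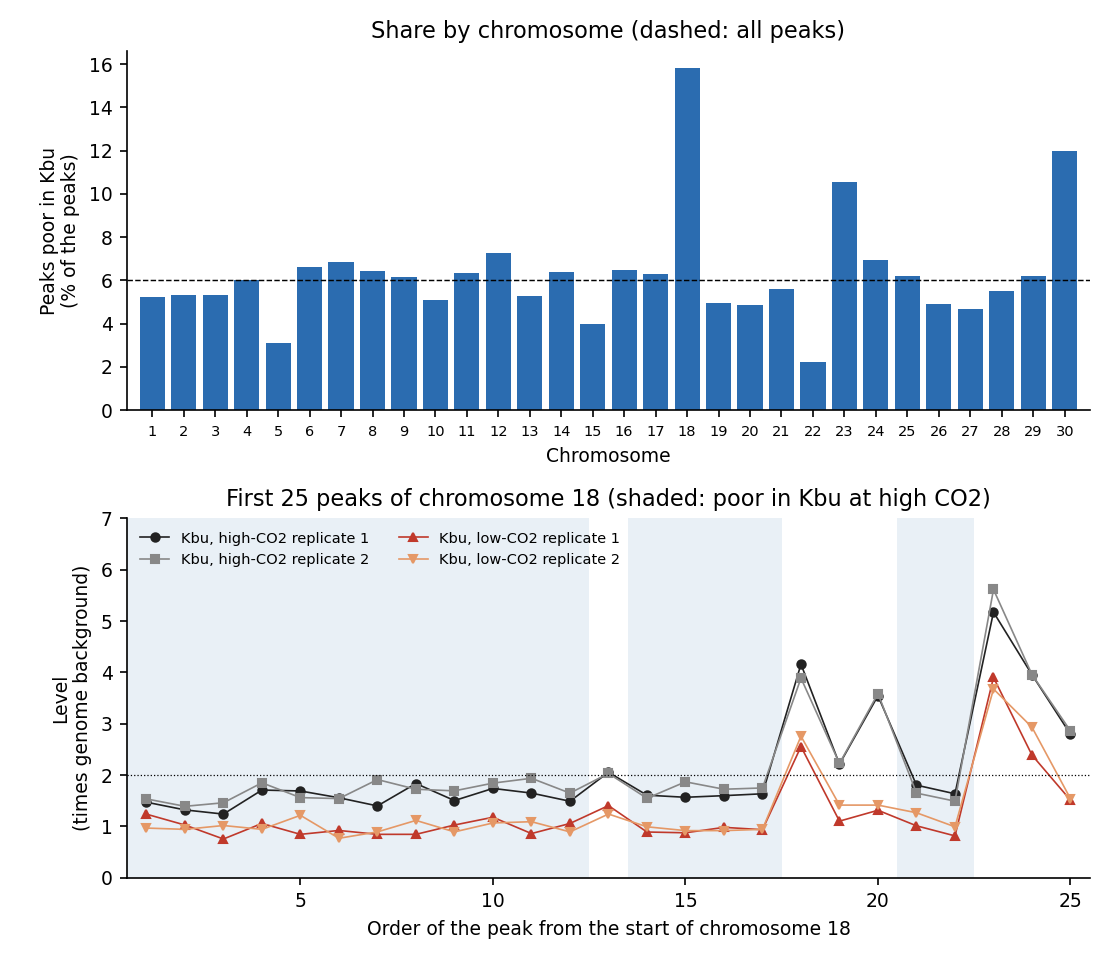
Top, share of the peaks on each chromosome that were poor in Kbu at high CO2 (y axis, percent), with a dashed line at the share over all peaks (6.03%); bottom, Kbu level in each of the 4 libraries (y axis, times genome background) at the first 25 peaks of chromosome 18 in order (x axis), with poor peaks shaded and a dotted line at 2 times background. Chromosome 18 has the highest share (15.8%), and its first 12 peaks lie between 0.756 and 1.94 in all 4 libraries.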

How the data were processed

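The labels' protocols describe ChIP with single reads. MACS2, BWA, deepTools, Picard and Trim Galore are named in the submitters' processing notes. For their versions and settings, the build and the peak calling, the sources used here give nothing. The authors deposited 2 tables of the same 6185 peaks, in which 29 of 35 columns are identical. Per the file headers they hold, for each library, a ChIP signal (raw, read here as the pileup), a control background signal (lambda) and a normalised signal, and the authors' comparison as a status, a log2 fold change with its error, a p-value, its adjusted form and a test score. In 100% of peaks the normalised signal was 10 times the ratio of pileup to control, rounded down and divided by 1 factor per library. Pileups were whole multiples (within 0.1 reads) of 1 step per library, which gives reads covering a peak but not reads per peak or total depth, so no count test was run.

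Levels are pileup over the lowest lambda of the library, which was assumed to be the genome background. Two-sided tests were made with limma 3.58.1 under R 4.3.3, with empirical Bayes moderation and a mean trend, on log2 of the level plus a pseudocount of 0.1. When tested on simulated data in which 200 of 6185 peaks differed by 1 on the log2 scale, each fit found 100% of them, with 9 false calls for H3K9me2 and 22 and 9 for the 2 Kbu splits. The simulated noise came from 1 pool shared by all peaks, and in the Kbu splits from the low-CO2 libraries alone. Real peaks may differ in their noise, so the share found in the real data may be lower. With 2 libraries against 2, an exact permutation test of a single value cannot go below p = 0.333. Medians over the chosen peaks are given as a description. Other steps used Python 3.11.15, NumPy 2.4.6, pandas 2.3.3 and Matplotlib 3.10.9.

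The peaks, the limits and the tests were chosen with earlier results of these data known. Named peaks are the 6 of the set with the highest Kbu and the 6 with the highest H3K9me2 at low CO2, the 6 with the largest H3K9me2 rise (none fell), the 3 nearest the limit on each side, the 3 widest and the 3 with the lowest Kbu at low CO2. The neighbours peak749 and peak4256 and the start of chromosome 18 were chosen after their values were seen. The alternatives tried were other limits and backgrounds, another scaling, other pseudocounts, a filter on low peaks, a replicate block and each library left out.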

Additional observations from a re-analysis of the deposited data

How the results depend on the processing

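The set held 112 peaks at a limit of 1.5 times and 755 at 2.5 times background, and 405 to 420 when 1 high-CO2 library chose it. With the 5th percentile of the control as background it held 455. The 49 peaks with Kbu at low CO2 became 145 at 1.5 times and 10 at 3 times background, 11 over each peak's own control, 5 with the 5th percentile of the control as background and 58 to 71 with a library left out. They became 170 when the low-CO2 levels were scaled to the all-peak median at high CO2, a setting chosen after seeing the data. For H3K9me2, the 45 peaks at low CO2 became 127 at 1.5 times background, 16 over each peak's own control and 54 to 69 with a library left out. The 5 at high CO2 became 36 at 1.5 times background and 6 to 13 with a library left out.

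The 47 peaks in which H3K9me2 rose became 327 on the deposited normalised value and 0 to 13 with a library left out. The other scaling gave 15 peaks that fell where the reported fit gave 0. Replicate numbers were not shown to pair the libraries: same-numbered libraries deviated with a correlation of 0.042 for H3K9me2 and 0.11 for Kbu. With a replicate block, 86 peaks rose and 5 fell. No paired fit was possible for the Kbu splits, which have 1 high-CO2 library. In those splits, scaling to 1 geometric mean gave 177 peaks that rose in each, 8 and 5 that fell, and median changes of 0.36 and 0.37 in place of -0.14 and -0.12. At a limit of 1.5 times, which chose fewer peaks, 15 and 4 fell and the medians were 0.41 and 0.51. A pseudocount of 1 moved the first median to -0.092. Without 1 low-CO2 library the medians were -0.16 to -0.12 and -0.15 to -0.07, and calls could not be tested because 1 library was left on each side. The cause of these shifts was not tested. For the H3K9me2 change at 11 of the named peaks, the only single-peak value tried, 80 values kept their direction and side of the threshold, 29 no longer passed, 1 newly passed and 0 reversed. At 28 to 65 reads on the median peak, H3K9me2 changes smaller than the counting error were not detectable. Larger changes could also go uncalled: the smallest change called among the 373 was 0.59 on the log2 scale, and 0.37 at peak4257 did not pass.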
